A study of Homo sapiens with 6 samples.

Results

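The G1 cyclins, their kinases and the inhibitors of these kinases were followed here as 10 named genes, all of which were found by symbol among the 28563 genes measured. They comprise the D-type cyclins CCND1, CCND2 and CCND3, the E-type cyclins CCNE1 and CCNE2, the cyclin-dependent kinases (CDKs) CDK2, CDK4 and CDK6, and the inhibitors CDKN1B and CDKN1C. Polydatin (PD), a plant glucoside of resveratrol, was given to HepG2 cells, an established human line from a liver cancer, and DMSO, its solvent, was given to the controls. There were 3 dishes per treatment and 1 poly(A) RNA library per dish, with a dose of 336 µM PD in the sample labels, a slightly lower dose in the study's own text, and an exposure of 24 h. The dishes were plated from the same line and assigned at random, so p-values measure the spread between dishes. The comparison asks how PD changed the RNA levels of genes that set the passage from G1 into S phase.

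The library totals were worked back from the deposited values. They were 16308476 to 18071632 fragments, with 16763318 to 17274927 in DMSO and 16308476 to 18071632 in PD. Libraries of the same treatment differed by more than sampling noise, with a chi-square of 2.3 to 3.78 per gene where noise alone gives about 1, so each was counted as a separate sample. Of 18 genes typical of hepatocytes or HepG2, 10 were found by symbol among the genes measured. The others, such as ALB and AFP, were not found. Only CPS1 and RBP4 of the 10 reached 1 FPKM in any library, FPKM being fragments scaled by exon length and by the library's total. HNF4A, the transcription factor that defines hepatocytes, was at most 0.106 FPKM, and SERPINA1, an abundant liver plasma protein, was at most 0.0452 FPKM. The summed FPKM of the 10 genes was 222 to 229 in DMSO and 107 to 113 in PD, nearly all of it CPS1. The hepatocyte markers thus do not bear out the label, and HepG2 is used below only as the labelled name. Summed markers of endothelium and of leukocytes stayed at or under 0.18 FPKM, and those of fibroblasts lay between 3.95 and 4.82 FPKM in every library.

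In the textbook view, growth signals raise the D-type cyclins, which bind CDK4 or CDK6 and begin to phosphorylate the retinoblastoma protein RB1. The transcription factors of the E2F family are then released and induce the E-type cyclins, which activate CDK2 and carry the cell into S phase. CDKN1B (p27) and CDKN1C (p57) are CIP/KIP inhibitors that block cyclin E-CDK2 and are also held by cyclin D-CDK4 and cyclin D-CDK6 complexes. Much of this control acts on protein stability and phosphorylation, which RNA levels do not show.

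PD changed 7 of the 9 genes that could be tested, in both directions. CCND1, CDK6 and CDKN1B fell, while CCND3, CCNE1, CCNE2 and CDKN1C rose, with an adjusted p no higher than 0.05 (limma on log2(FPKM + 1), 14400 genes). CDK2 and CDK4 did not pass the test, and CCND2 lay under the minimum mean of 0.5 FPKM. Over all genes tested, 31.9% were higher and 26.2% were lower at the same threshold, so 4 higher and 3 lower of 9 is a share of the kind seen across the transcriptome. With a change of at least 2-fold added, CDK6 was the only member called, against 1.57% of all genes called as lower and 2.04% called as higher. The 3 PD libraries lay above all 3 DMSO libraries in 4 of the 9 genes and below them in 3, and over all genes tested the shares were 35.6% and 29.9%. The median log2 fold change was 0.05 in the 9 genes and 0.01 over all genes tested. In bulk RNA, fewer cells that express a gene and less of its RNA per cell cannot be told apart.

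**Figure D1:**
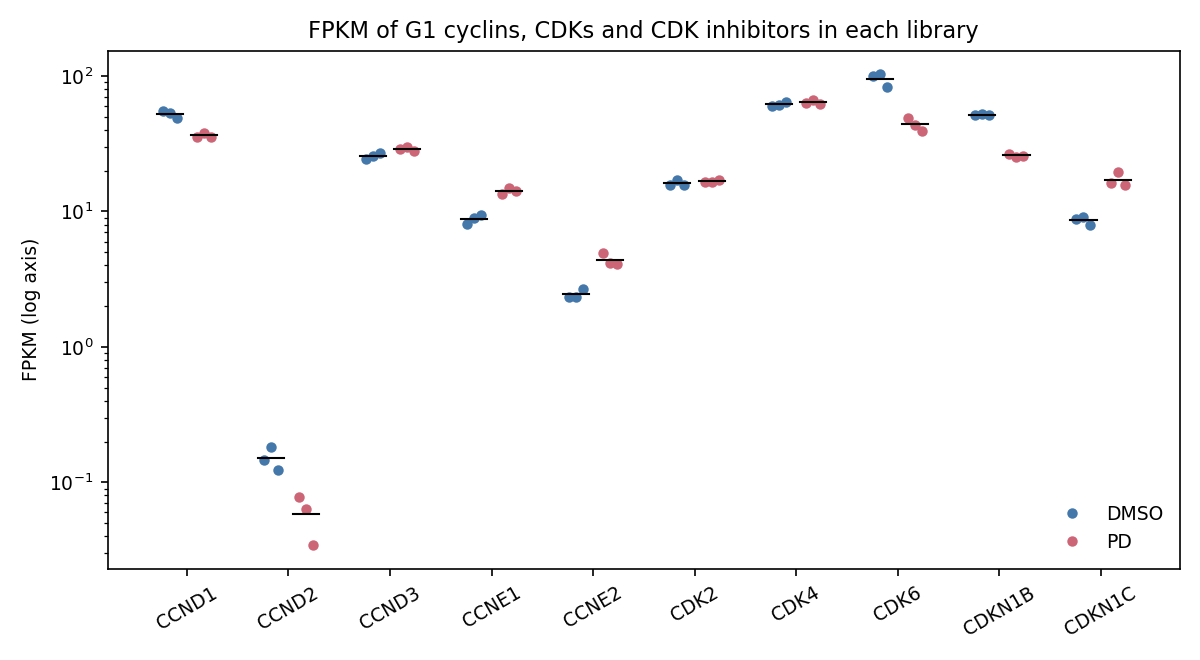
FPKM of the 10 genes on a log axis, with 1 point per library (3 DMSO in blue, 3 PD in red) and a bar at each group mean. CDK6, CCND1 and CDKN1B lie lower in PD, CCNE1, CCNE2 and CDKN1C lie higher, CDK2 and CDK4 overlap, and CCND2 stays under 0.2 FPKM.

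**Figure D2:**
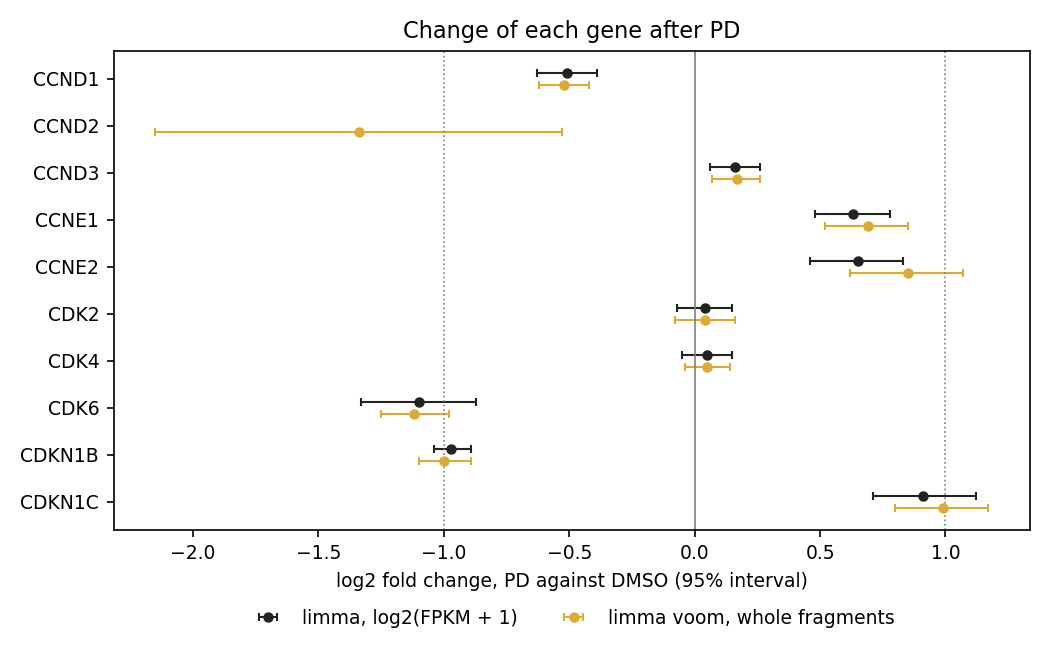
Log2 fold change of PD against DMSO for each gene with its 95% interval, from limma on log2(FPKM + 1) in black and from limma voom on whole fragments in yellow, with dotted lines at 2-fold. CDK6 and CDKN1B lie close to a 2-fold fall, CDKN1C close to a 2-fold rise, and CCND2 has a value from fragments only, which is a description.

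The starts of CDK6 and CDKN1B, which had the largest falls among the 9 genes tested, and of CCNE1, which rose, are shown as the 250 bases upstream of their RefSeq start sites (GRCh38.p14, written 5′ to 3′ on the strand of the gene), to show what sequence lies before these genes. Capitals mark GC boxes (GGGCGG, either strand), which Sp1-like factors can bind, and CCAAT boxes (CCAAT, either strand), which NF-Y can bind.
CDK6, chr7:92836574-92836823, minus strand: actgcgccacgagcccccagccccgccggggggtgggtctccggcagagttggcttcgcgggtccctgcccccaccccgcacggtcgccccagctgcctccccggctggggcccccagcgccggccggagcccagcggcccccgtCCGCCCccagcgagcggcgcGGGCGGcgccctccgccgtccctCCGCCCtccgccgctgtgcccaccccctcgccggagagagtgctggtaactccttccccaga
CDKN1B, chr12:12717118-12717367, plus strand: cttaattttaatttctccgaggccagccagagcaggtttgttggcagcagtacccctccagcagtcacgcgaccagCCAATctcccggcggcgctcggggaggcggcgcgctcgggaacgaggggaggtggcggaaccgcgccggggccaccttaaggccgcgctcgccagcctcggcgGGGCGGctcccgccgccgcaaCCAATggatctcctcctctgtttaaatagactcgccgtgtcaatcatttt
CCNE1, chr19:29811741-29811990, plus strand: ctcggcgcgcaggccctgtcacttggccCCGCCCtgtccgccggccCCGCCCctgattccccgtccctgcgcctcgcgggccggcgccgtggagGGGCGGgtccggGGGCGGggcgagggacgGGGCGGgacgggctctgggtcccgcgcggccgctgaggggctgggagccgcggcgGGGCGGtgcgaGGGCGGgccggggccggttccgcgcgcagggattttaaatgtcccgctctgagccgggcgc
The RefSeq start of CDKN1B lies inside the longer span that GENCODE gives this gene. CCNE1 holds 7 GC boxes in this window, CDK6 holds 3, and CDKN1B holds 1 together with 2 CCAAT boxes. CDK6 has another RefSeq start, whose window (chr7:92833960-92834209) is not shown and holds neither kind of box. GC boxes occurred in 42.6% and CCAAT boxes in 32.0% of 35116 upstream windows of this length, and the windows can hold a box by chance. RefSeq windows were found for 5 of the 10 genes, and those of CCND1, CCND2, CCNE2, CDK2 and CDKN1C were not among them. The 8 windows of the 5 genes, some of which have several start sites, held no E2F octamer (TTTCCCGC, TTTGGCGC, TTTCGCGC or TTTGCCGC, either strand), which occurred in 2.79% of all windows. Neither the cyclic AMP element (TGACGTCA, either strand, 1.65% of all windows) nor the FOXO word (GTAAACA, either strand, 2.98%) was found in them. With words this rare and 8 windows, such absences say little. Only exact words were searched, and only upstream of the start, so sites of these factors may have been missed.

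Among the D-type cyclins, CCND1 was the most abundant and fell after PD. CCND1, which links growth factor and Wnt signals to CDK4 and CDK6, lies on chromosome 11 of GRCh38 from 69641156 to 69654474 on the plus strand. Its FPKM was 54.9, 53.3 and 48.9 in DMSO and 35.3, 38.2 and 35.7 in PD. All 3 PD libraries were lower than all 3 DMSO libraries, and the means were 52.3 ± 3.11 and 36.4 ± 1.54 FPKM (SD, n = 3 each), a ratio of 0.696. The log2 fold change was -0.51 (SE 0.05, limma adjusted p = 0.00014). Between 4038 and 4578 fragments of CCND1 were counted per DMSO library, and between 2815 and 3231 per PD library. The exons of CCND1 share 497 bases with LTO1 on the opposite strand, whose mean fell from 4.26 to 2.97 FPKM (adjusted p = 0.00081, limma), and how shared reads were assigned was not tested.

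CCND3, a D-type cyclin that is prominent in blood cells and differentiated tissues, lies on chromosome 6 from 41934934 to 42050357 on the minus strand. It had 24.6, 25.5 and 27.1 FPKM in DMSO and 28.7, 29.8 and 28.1 FPKM in PD. The groups did not overlap, but the gap between the highest DMSO and the lowest PD library was small. The means were 25.7 ± 1.25 and 28.9 ± 0.824 FPKM (SD, n = 3 each), and the log2 fold change came to 0.16 (SE 0.04, limma adjusted p = 0.017). This rise was not robust, since the adjusted p was 0.056 with median-of-ratios scaling, 0.068 with upper quartile scaling, 0.053 without DMSO replicate 1 and 0.061 without PD replicate 2 (limma).

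CCND2, the third D-type cyclin, was almost silent in these cells. It lies on chromosome 12 from 4269771 to 4305353 on the plus strand, and it had 0.146, 0.183 and 0.123 FPKM in DMSO and 0.0773, 0.0638 and 0.0343 FPKM in PD. Behind these values were 18, 22 and 15 fragments in DMSO and 10, 8 and 4 fragments in PD, so counting error is large. The summed fragments gave a ratio of PD to DMSO of 0.394, with an exact 95% interval from 0.229 to 0.657 that covers counting error only. For limma voom a gene had to reach 10 fragments in 3 libraries. CCND2 did so in all 3 DMSO libraries, where it was higher, and in PD only in replicate 1, with just 10 fragments. It thus entered that fit by way of the DMSO libraries, so its log2 fold change of -1.34 there is given as a description with no test. Its exons share 999 bases with another annotated gene on the same strand, which adds to the uncertainty of so few fragments.

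The makeup of the D-type family therefore shifted. The share of CCND1 in the summed FPKM of CCND1, CCND2 and CCND3 was 68.9%, 67.5% and 64.2% in DMSO and 55.1%, 56.1% and 55.9% in PD. The groups did not overlap, with means of 66.9% ± 2.39 and 55.7% ± 0.569 (SD, n = 3 each). The summed FPKM of the family was 78.2 ± 1.89 in DMSO and 65.3 ± 2.3 in PD (SD, n = 3 each), so the lower CCND1 was offset only in part by CCND3. For each of these, the exact two-sided permutation test gave p = 0.1, the smallest p that 3 against 3 libraries allow.

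Both E-type cyclins rose after PD. CCNE1, the main partner of CDK2 at the start of S phase, lies on chromosome 19 from 29811991 to 29824312 on the plus strand, and its exons overlap no other annotated gene. It had 8.06, 8.98 and 9.4 FPKM in DMSO and 13.5, 14.9 and 14.2 FPKM in PD. Every PD library was above every DMSO library, and the means were 8.81 ± 0.686 and 14.2 ± 0.735 FPKM (SD, n = 3 each), a ratio of 1.61. The log2 fold change was 0.63 (SE 0.06, limma adjusted p = 0.00014).

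CCNE2, the second E-type cyclin, lies on chromosome 8 from 94879770 to 94896678 on the minus strand. Its levels were 2.34, 2.35 and 2.66 FPKM in DMSO and 4.96, 4.19 and 4.09 FPKM in PD. The groups did not overlap, and the means were 2.45 ± 0.181 and 4.41 ± 0.476 FPKM (SD, n = 3 each), a ratio of 1.8. On the log2(FPKM + 1) scale the fold change was 0.65 (SE 0.08, limma adjusted p = 0.00037), and voom on fragments gave 0.85, since the added 1 understates changes at low FPKM. CCNE2 shares 1629 exon bases with INTS8, an Integrator subunit on the opposite strand, which rose as well, from 4.02 to 7.37 FPKM on average (adjusted p = 3.3e-05, limma). Its part in the CCNE2 values was not tested.

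The summed E-type FPKM was 10.4, 11.3 and 12.1 in DMSO and 18.4, 19.1 and 18.3 in PD. The ratio of CCNE1 to CCNE2 was 3.44, 3.83 and 3.53 in DMSO and 2.71, 3.56 and 3.48 in PD, and these ranges overlapped (exact two-sided permutation p = 0.5 on the log2 ratio). The balance within the E-type pair thus did not differ beyond the spread between libraries. Set against the D-type cyclins, the balance did move, since the ratio of summed D-type to summed E-type FPKM was 6.98 ± 0.673 in DMSO and 3.51 ± 0.0415 in PD (SD, n = 3 each, exact two-sided permutation p = 0.1). This ratio was computed after the values of the single genes were known. How reads shared by CCNE2 and INTS8 were counted is not given, so the sum and the ratios that hold CCNE2 are uncertain to that extent.

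Of the 3 kinases, only CDK6 changed. CDK6, which binds D-type cyclins and is best known in blood cells and in many tumors, lies on chromosome 7 from 92604921 to 92836573 on the minus strand. Its FPKM was 99.9, 103 and 83.6 in DMSO and 48.9, 43.7 and 39.3 in PD. All PD libraries were far below all DMSO libraries, with means of 95.5 ± 10.4 and 44 ± 4.8 FPKM (SD, n = 3 each) and a ratio of 0.461. The log2 fold change was -1.1 (SE 0.1, limma adjusted p = 8e-05), and it lay between -1.19 and -1.02 when single libraries were left out. It was measured with 7866 to 21163 fragments per library, so counting error is small (0.708% in DMSO and 1.03% in PD as a coefficient of variation) beside the spread between dishes of 10.9% in each group. Its exons share 86 bases with CDK6-AS1 on the opposite strand, which had 0.526 FPKM in DMSO and 0.12 FPKM in PD, far below CDK6 itself.

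CDK4, the other kinase bound by D-type cyclins, lies on chromosome 12 from 57747727 to 57756013 on the minus strand. It had 59.9, 60.6 and 64.6 FPKM in DMSO and 63.1, 66.4 and 62.0 FPKM in PD. The groups overlapped, and the log2 fold change of 0.05 had a 95% interval from -0.05 to 0.15 and an adjusted p of 0.35 (limma). CDK4 shares 1369 exon bases with TSPAN31 on the opposite strand, which was much lower, at 2.5 FPKM in DMSO and 1.7 FPKM in PD. How shared reads were assigned was not tested.

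CDK2, the kinase activated by E-type cyclins, lies on chromosome 12 from 55966781 to 55972789 on the plus strand. On the opposite strand, its exons share 89 bases with PMEL and 565 bases with another annotated gene. How reads shared with these were assigned was not tested. Its values were 15.8, 17.2 and 15.6 FPKM in DMSO and 16.5, 16.5 and 17.2 FPKM in PD. The groups overlapped here too, with a log2 fold change of 0.04, a 95% interval from -0.07 to 0.15 and an adjusted p of 0.48 (limma). For both kinases these intervals leave out a change of 2-fold but allow small ones.

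In the FPKM as deposited, the order of CDK4 and CDK6 turned over between the groups. FPKM are scaled by gene length, so levels of different genes may be set beside each other, as far as the lengths used are right. The ratio of CDK6 to CDK4 FPKM was 1.67, 1.7 and 1.29 in DMSO and 0.775, 0.658 and 0.634 in PD. In every DMSO library CDK6 was above CDK4, and in every PD library it was below. CDK4 shares 1369 bases with TSPAN31, out of 3094 exon bases in GENCODE. How shared reads were counted is not given, and if they were left out, the FPKM of CDK4 would be too low. Which kinase was the more abundant in DMSO is thus uncertain. The log2 ratio of CDK4 to CDK6 rose from -0.625 ± 0.219 to 0.543 ± 0.154 (SD, n = 3 each), and the exact two-sided permutation p was 0.1, the smallest possible. Together the FPKM of both kinases came to 157 ± 8.05 in DMSO and 108 ± 5.69 in PD (SD, n = 3 each).

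**Figure D3:**
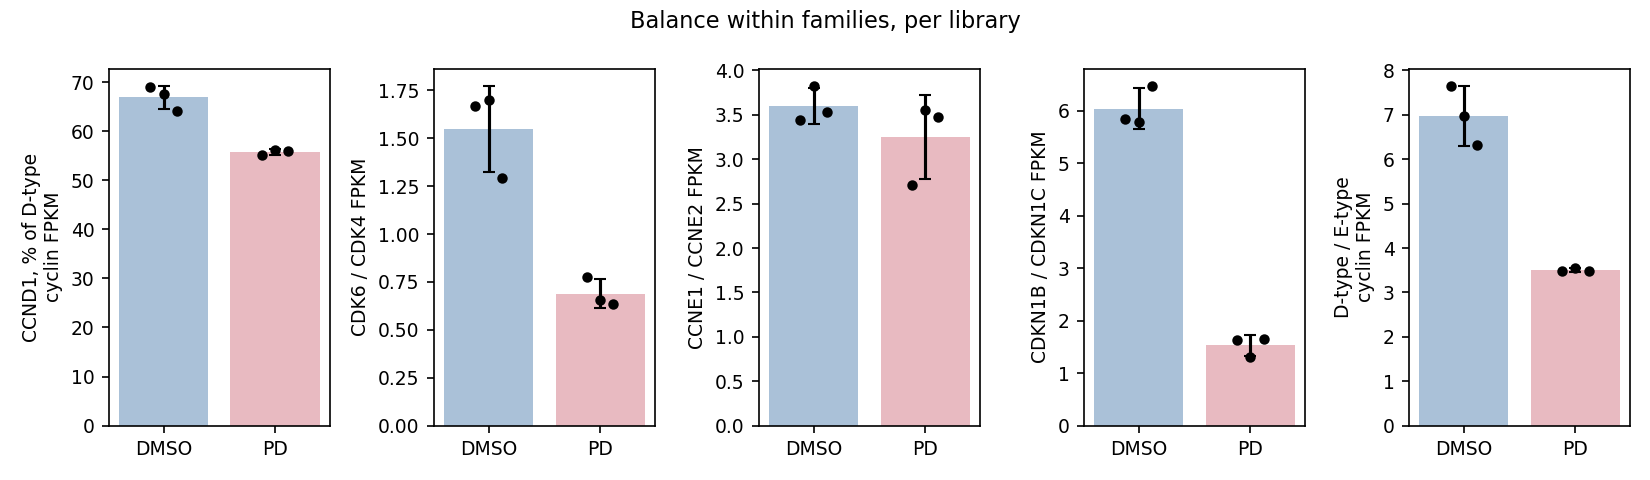
Shares and FPKM ratios within and between families, with 1 point per library, bars at the group means and error bars of 1 SD (n = 3 per group). CDKN1B is at the length behind its FPKM. The groups are apart in the CCND1 share, the CDK6 to CDK4 ratio, the CDKN1B to CDKN1C ratio and the D-type to E-type ratio, and they overlap in the CCNE1 to CCNE2 ratio.

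The inhibitors CDKN1B and CDKN1C moved in opposite directions. CDKN1B, which encodes p27 and lies on chromosome 12 from 12685498 to 12722369 on the plus strand, had 51.4, 52.4 and 51.2 FPKM in DMSO and 26.6, 25.3 and 25.8 FPKM in PD. The libraries of a group were nearly alike and the groups were far apart. The means were 51.7 ± 0.624 and 25.9 ± 0.631 FPKM (SD, n = 3 each), a ratio of 0.501. The log2 fold change was -0.97 (SE 0.03, limma adjusted p = 2.6e-06), the lowest p of the 9 genes tested. It fell short of 2-fold by a small margin on the log2(FPKM + 1) scale, and was at -1.0 with median-of-ratios scaling and -1.01 with upper quartile scaling, where it was called. The FPKM of CDKN1B were made with a length of 2811 bases, while the exons in GENCODE release 44 cover 9255 bases. This bears on its level beside other genes but not on the ratio of its means. The fold change on the log2(FPKM + 1) scale depends on the length through the added 1, and it was not refitted. At the GENCODE length, a setting added after the data were seen, its FPKM would be 15.6, 15.9 and 15.6 in DMSO and 8.07, 7.69 and 7.83 in PD. If fragments were counted only over the exons behind the 2811 bases, dividing them by 9255 bases gives values that are too low. Which exons were counted is not stated and was not tested, so each comparison of CDKN1B with another gene is given at both lengths.

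CDKN1C encodes p57, an inhibitor expressed from the maternal allele in most tissues. It lies on chromosome 11 from 2883213 to 2885775 on the minus strand and shares no exon bases with another annotated gene. Its FPKM was 8.77, 9.07 and 7.91 in DMSO and 16.2, 19.5 and 15.6 in PD. All PD libraries were above all DMSO libraries, with PD replicate 2 the highest. The means were 8.58 ± 0.6 and 17.1 ± 2.1 FPKM (SD, n = 3 each), a ratio of 1.99, and the log2 fold change was 0.91 (SE 0.09, limma adjusted p = 0.00011).

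The ratio of CDKN1B to CDKN1C FPKM was 5.85, 5.78 and 6.48 in DMSO and 1.64, 1.3 and 1.65 in PD. At the GENCODE length of CDKN1B it was 1.78, 1.75 and 1.97 in DMSO and 0.5, 0.395 and 0.502 in PD. The ratio was lower in PD at either length, but which of the genes was the more abundant after PD depends on the length. Their sum was 60.2 ± 1.15 FPKM in DMSO and 43.0 ± 1.72 FPKM in PD (SD, n = 3 each), and 24.3 ± 0.755 and 24.9 ± 1.97 FPKM at the GENCODE length, where the groups overlapped. The sum was thus lower in PD at the length behind the FPKM, and no direction can be given for it at the GENCODE length. Set against the D-type cyclins, CDKN1B was at a ratio of 0.645, 0.663 and 0.673 to their summed FPKM in DMSO and of 0.414, 0.373 and 0.403 in PD. On the log2 scale this ratio went from -0.599 ± 0.0318 to -1.34 ± 0.0799 (SD, n = 3 each, exact two-sided permutation p = 0.1), a difference of -0.736 at either length. At the GENCODE length the ratio itself was 0.196, 0.201 and 0.205 in DMSO and 0.126, 0.113 and 0.123 in PD. The ratio of summed CDK4 and CDK6 to summed CDKN1B and CDKN1C, also computed after the single genes were known, was 2.61 ± 0.0895 in DMSO and 2.51 ± 0.098 in PD (SD, n = 3 each), and its groups overlapped (exact two-sided permutation p = 0.2). At the GENCODE length it was 6.47 ± 0.139 and 4.33 ± 0.288 (SD, n = 3 each), and the groups did not overlap (exact two-sided permutation p = 0.1).

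CDKN1A, the third CIP/KIP inhibitor (p21) and a p53 target, rose from 50.8, 51.7 and 47.7 FPKM in DMSO to 101, 117 and 114 FPKM in PD, a log2 fold change of 1.13 with an adjusted p of 8.5e-06 (limma). With CDKN1A included, the CIP/KIP sum was 110 ± 3.19 FPKM in DMSO and 154 ± 9.04 FPKM in PD (SD, n = 3 each). CDKN1A made up 45.4% ± 0.645 of this sum in DMSO and 72.0% ± 1.58 in PD, and CDKN1B made up 46.8% ± 0.963 and 16.9% ± 1.43 (SD, n = 3 each). At the GENCODE length of CDKN1B the sum was 74.3 ± 2.84 and 136 ± 9.48 FPKM, of which CDKN1A made up 67.3% ± 0.299 and 81.6% ± 1.22 and CDKN1B 21.1% ± 0.648 and 5.82% ± 0.56 (SD, n = 3 each). The share of CDKN1A was higher and that of CDKN1B lower in PD at either length, while how close the shares were in DMSO depends on the length.

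By level in the deposited FPKM, the order in DMSO was CDK6, CDK4, CCND1, CDKN1B, CCND3, CDK2, CCNE1, CDKN1C, CCNE2 and CCND2. The place of CDK4 depends on how reads shared with TSPAN31 were counted, which was not tested. CCND1 and CDKN1B overlapped there, and so did CCNE1 and CDKN1C. In PD the order was CDK4, CDK6, CCND1, CCND3, CDKN1B, CDKN1C, CDK2, CCNE1, CCNE2 and CCND2, and of the neighbors only CDKN1C and CDK2 overlapped. The place of CDKN1B holds for the length behind its FPKM, and at the GENCODE length it would lie beside CDK2 in DMSO, where their ranges overlap, and between CCNE1 and CCNE2 in PD. Among the genes tested, CDK6 stood at a median percentile of 97.6 in DMSO and 92.8 in PD, and CCNE2 stood at 30.6 and 42.6.

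Other cyclins and CDKs, from a list of 33 symbols, were compared next. Of these, 32 were found and 31 were tested, and 7 were higher, 13 were lower and 11 did not pass (limma, same threshold). Over all genes tested, 31.9% were higher and 26.2% were lower. Their median log2 fold change was -0.1, against 0.01 over all genes tested. The largest falls were those of the mitotic cyclins CCNB1 (64.3 ± 1.03 to 31.0 ± 0.174 FPKM, log2 fold change -1.03) and CCNB2 (29.0 ± 1.25 to 19.8 ± 0.0187 FPKM, -0.53), and of CCNL1, a cyclin of transcription and splicing (16.9 ± 1.32 to 10.7 ± 0.146 FPKM, -0.62). CDK18 rose from 1.8 ± 0.0383 to 3.72 ± 0.34 FPKM (log2 fold change 0.75), CCNI from 37.4 ± 2.22 to 54.2 ± 1.43 FPKM (0.53) and CDK20 from 0.845 ± 0.144 to 1.61 ± 0.179 FPKM (0.5), each SD with n = 3. None of these 6 genes had an adjusted p above 0.0032 (limma).

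A second list held 28 other genes of G1/S control, and all were tested, with 11 higher, 8 lower and 9 not past the threshold. The shares over all genes tested were 31.9% higher and 26.2% lower. CDKN1A (above) and CABLES2 (5.65 ± 0.48 to 12.9 ± 0.552 FPKM, log2 fold change 1.06) rose by at least 2-fold, and E2F1, the best known activator of S phase genes, rose from 37.5 ± 1.72 to 50.9 ± 1.15 FPKM (0.43). CKS2, a small CDK-binding protein, fell from 250 ± 9.51 to 163 ± 4.46 FPKM (-0.61), E2F4, which acts mainly as a repressor, from 46.3 ± 3.64 to 31.5 ± 1.19 FPKM (-0.54), and E2F5 from 2.25 ± 0.165 to 1.27 ± 0.111 FPKM (-0.52), each SD with n = 3. Their adjusted p did not exceed 0.00093 (limma). The 4 INK4 inhibitors, which act on CDK4 and CDK6 only and are named here after their values were seen, were split, since CDKN2C (0.16) and CDKN2D (0.36) rose, CDKN2A (-0.22) fell, and CDKN2B had a log2 fold change of -0.01 with an adjusted p of 0.86 (limma). SKP2 and CKS1B, which mark p27 for degradation, and FBXW7, which does so for cyclin E, were likewise named after their values were seen. Their log2 fold changes were 0.14, -0.03 and -0.01, and none passed the test (adjusted p of 0.12, 0.73 and 0.93, limma).

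The third list held 23 S phase genes under E2F control, and 13 of them rose, 6 fell and 4 did not pass (limma, same threshold). Among all genes tested, 31.9% rose and 26.2% fell, so rises were more frequent in this list and falls were near the general share. Their median log2 fold change was 0.24, the highest of the 3 lists. CDC6, which loads the replicative helicase, rose from 17.3 ± 0.532 to 39.6 ± 0.841 FPKM (log2 fold change 1.15), TK1, a thymidine kinase, from 83.0 ± 2.64 to 147 ± 3.76 FPKM (0.82) and CHAF1B, a histone chaperone subunit, from 9.98 ± 0.342 to 17.1 ± 0.675 FPKM (0.72). The helicase subunits MCM2 (117 ± 0.97 to 88.4 ± 2.9 FPKM, -0.4) and MCM5 (22.9 ± 0.229 to 18.0 ± 0.246 FPKM, -0.33) and the polymerase subunit POLA1 (29.3 ± 0.589 to 24.8 ± 1.44 FPKM, -0.23) fell, each SD with n = 3. The adjusted p ranged up to 0.0042 among these 6 genes (limma). E2F targets thus moved in both directions, as the E-type cyclins, E2F1 and CDC6 rose while MCM2 and MCM5 fell.

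**Figure D4:**
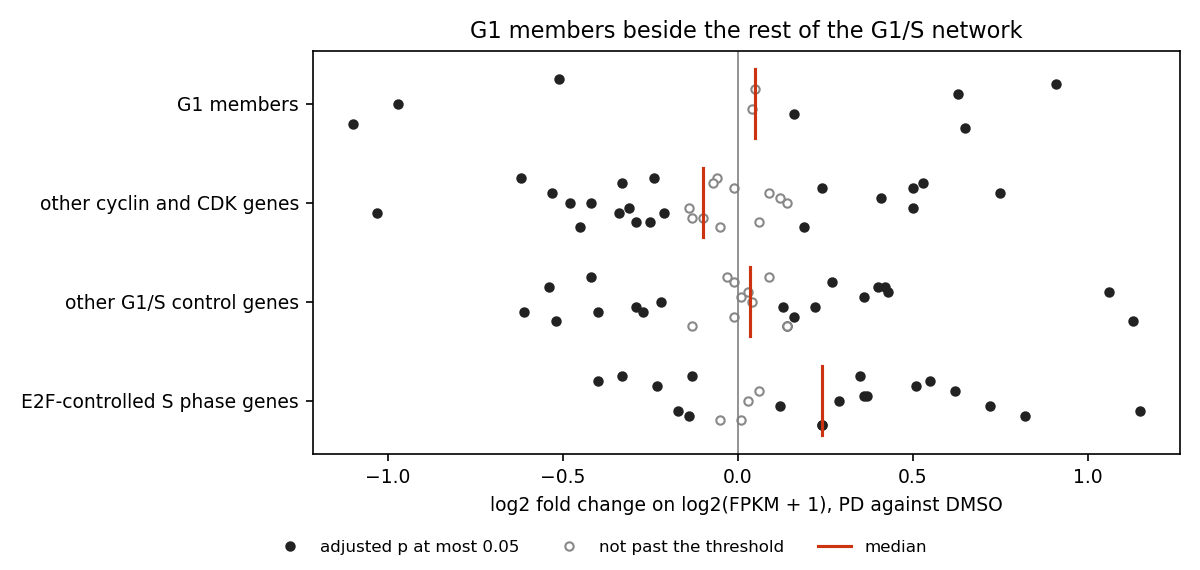
Log2 fold change of PD against DMSO on the log2(FPKM + 1) scale for the 9 tested G1 genes and for the tested genes of 3 lists, with 1 point per gene, filled where the adjusted p does not exceed 0.05, and a red line at each median. Each row spreads to both sides of 0, and the medians lie between -0.1 and 0.24.

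With limma voom on whole fragments, and CCND2 left aside, 4 of the 9 genes were higher and 3 were lower past the same threshold, where 34.4% and 28.4% of 15067 genes were called. CDK6 was the only one of the 9 called as lower by at least 2-fold, against 4.81% of all genes. Between this fit and the FPKM fit the log2 fold changes of the 9 genes that had both differed most for CCNE2 (0.85 and 0.65), followed by CDKN1C (0.99 and 0.91).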

How the data were processed

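RNA from 3 PD-treated and 3 DMSO-treated dishes was analysed, grouped by the sample labels. Per the labels, poly(A) RNA went into NEBNext Ultra libraries, HISAT2 and HTSeq (0.6.0) were the aligner and counter, and hg38 was the genome. The authors deposited FPKM for 28563 genes. The annotation and the strand setting of the counting are not given in the sources used here, so genes with overlapping exons are uncertain.

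Symbols and positions came from GENCODE release 44 (28161 genes matched). The 14400 genes whose mean reached 0.5 FPKM were fitted as log2(FPKM + 1), PD against DMSO without covariates, with limma 3.58.1 in R 4.3.3 and a trended prior variance. Benjamini-Hochberg adjusted p-values were taken over all genes tested, with a threshold of 0.05, and a DEG had also to change 2-fold or more. The pseudocount of 1 understates changes at low FPKM. Library totals were inferred from the FPKM and the GENCODE exon lengths. With these totals, whole fragments were worked back from FPKM and lengths for all but 2 genes (tolerance 0.001 fragments). These fragments were used for depth and for limma voom (at least 10 fragments in 3 libraries). The main limma fit and the voom fit were tried on counts simulated with a fixed dispersion. Ratios within libraries were compared by exact two-sided permutation tests (scipy 1.17.1), whose smallest p is 0.1.

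All 10 members, and the 3 largest rises and falls past the threshold in each list, were named. The members and lists were chosen with earlier results of these data known. Alternatives were a pseudocount of 0.1, no filter, a replicate block, voom, 2 scalings between libraries and leaving out each library, and, added after seeing the data, CDKN1B at its GENCODE exon length. No column of the table was left unassigned.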

Additional observations from a re-analysis of the deposited data

How the results depend on the processing

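The counts of members higher (4) and lower (3) past the threshold stayed within 1.5 times under every alternative, as did those of the 3 lists. Members called as lower by at least 2-fold numbered 1, and 2 with voom on fragments, with median-of-ratios scaling and with upper quartile scaling. The gene added was CDKN1B under both scalings and CCND2 under voom, which CCND2 entered by way of the DMSO libraries. Over all genes, DEGs numbered 294 higher and 226 lower, 698 and 550 with a pseudocount of 0.1, and 1010 and 724 with voom, which also differs in its filter and its variance model; the cause was not tested. CCND3 lost its call in 4 settings, and the log2 fold change of CDK2 was -0.00 with upper quartile scaling against 0.04 (adjusted p = 0.97, limma). None of the other tested members changed direction or its side of the threshold. CCND2, which the main fit left out, had a log2 fold change of -0.12 without the filter (adjusted p = 0.046, limma). It rests on very few fragments. CDKN1B lay between -1.01 and -0.95 and CDK6 between -1.19 and -1.02 over the alternatives. With CDKN1B at its GENCODE exon length, an alternative chosen after seeing the data, the difference in the summed FPKM of CDKN1B and CDKN1C turned from -17.3 to 0.671.

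Replicate numbers did not pair the samples, with correlations of deviations of -0.03, 0 and 0.09 between same-numbered libraries. With the replicate number as a block, 4 members were higher and 3 lower, as without it. CCND2 had 4 to 22 fragments per library, so the depth limits what can be said of it.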
